A study of Mus musculus with 6 samples.

Results

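The genes described here encode factors that assemble the large subunit of the cytosolic ribosome. They are a list of 38 named proteins, and each gene was read from 1 probe set, the one with the highest 6-array mean among those annotated with that gene's symbol alone. Of the 38 genes, 36 were measured among 18193 genes, and Npm3 and Mrto4 were not analysed by name here. Uterine RNA was hybridised to 6 one-colour arrays, 3 from progesterone-treated and 3 from oil-treated mice. Both groups were 8-week-old females of mixed background, Gata2 f/f (a floxed allele) with no recombinase named, and their ovaries had been removed at 6 weeks of age. The progesterone group received 1 mg per mouse in 100 µl of sesame oil, the oil group received sesame oil alone, and uteri were collected 6 h after the injection. The design text states pooling of RNA from 3 mice without saying if every array had its own pool. The p-values therefore reflect only differences among these arrays, which may be technical.

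Ribosome assembly starts in the nucleolus, where RNA polymerase I transcribes a long precursor RNA that is folded, modified and cut while ribosomal proteins are added. The precursor of the large subunit is built by a succession of factors: nucleolar scaffold proteins and methyltransferases act early, GTPases and ATPases check and release intermediates on the way through the nucleoplasm, and an export adapter carries the particle to the cytoplasm, where the last factors leave. Cells that prepare to grow or to make more protein often raise the transcripts of these factors together. The uterus after removal of the ovaries is small and receives little ovarian steroid.

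After progesterone 21 of the 36 measured assembly factors were higher and 0 were lower, read throughout as an adjusted p under 0.05 in limma with Benjamini-Hochberg adjustment over all genes. Over all 18193 genes, 5.92% were higher and 5.83% were lower by the same rule. Without oil replicate 2 the member count was 12 and the share of all genes that was higher 2.08%. Values are log2 expression levels from RMA, so a difference of 1 is a doubling. The rises were moderate: the 21 genes were between 1.35-fold and 2.47-fold higher, 19 of them by at least 1.5-fold and 2, Rrs1 and Gnl3, by at least 2-fold. At an unadjusted p under 0.05 in limma, 26 members were higher and 1, Nsa2, was lower. By this looser rule 4730 of all 18193 genes passed, with both directions counted together. The median log2 change of the 36 members was 0.61, against -0.02 over all genes. The 3 progesterone arrays lay above the 3 oil arrays for 26 members, as they did for 14.5% of all genes, and below them for 1 member, as for 15.9% of all genes. No member was near the array background: the lowest member value was 6.20, whereas TrpnX controls, built against bacterial sequence, reached 3.34. In bulk tissue, a change in the number of expressing cells and a change in RNA per cell cannot be told apart.

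**Figure D1:**
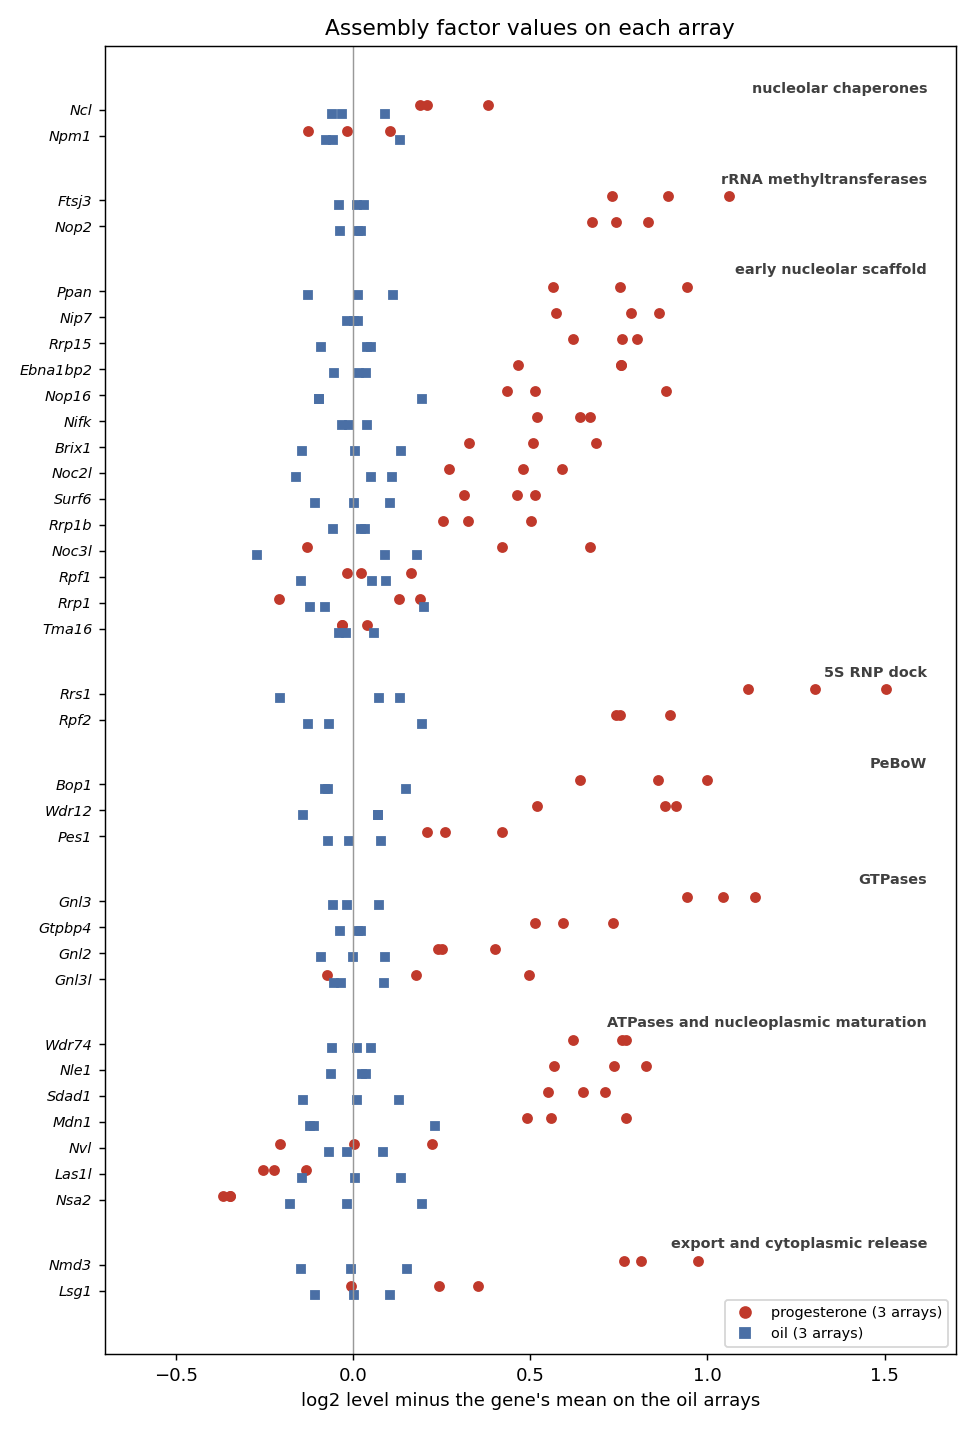
Level of each measured assembly factor on each array (horizontal axis: log2 level minus that gene's mean on the 3 oil arrays; red circles: 3 progesterone arrays; blue squares: 3 oil arrays), grouped by assembly step. For 26 of the 36 genes all progesterone arrays lie right of all oil arrays, and for Nsa2 they lie left.

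The promoters of the members were searched for 3 motifs in RefSeq sequences of GRCm38.p6, which held 32 of the 38 genes with 250 bases before and 50 bases after an annotated start. For Noc2l, Rpf2, Rrp1b and Wdr12 there were several starts, and a motif at any of them was counted, so the window shown for Rpf2 is that of 1 of its 2 starts. CACGTG, the E-box that Myc and Max proteins bind, was found in 8 of the 32 genes, among them 6 of 19 that rose (Nop2, Nmd3, Nle1, Rpf2, Sdad1 and Mdn1) and 2 of 11 that did not pass (Pes1 and Tma16). It was in 8.09% of all 27025 genes with a promoter entry and in 10.2% of the 14452 that were also tested on the array. TGTTCT, one side of the steroid receptor element, was likewise in 8 of the 32 genes, against 21.3% of all genes and 17.0% of those tested. It had the same split as the E-box, 6 of 19 that rose and 2 of 11 that did not pass. GGGCGG, the GC box, was in 21 (65.6%), against 38.2% of all genes and 57.3% of those tested. It was in 12 of 19 that rose and 8 of 11 that did not pass. All motifs were searched on both strands, and the E-box reads the same on both. The median GC content of the promoters was 59.0% for members, 52.7% for all genes and 58.3% for genes tested. A match describes letters in a window and does not show that a factor bound there.

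Shown here are the 150 bases before the start for the 4 members with the smallest adjusted p among those with an entry (Gnl3, Nop2, Ftsj3 and Wdr74) and for the other 2 members that rose with an E-box before the start (Nmd3 and Rpf2, chosen after their values were seen), written 5′ to 3′ on the strand of the gene in GRCm38.p6. The capitals mark E-boxes (CACGTG) and GC boxes (GGGCGG or, on the other strand, CCGCCC). The windows are chr14:31019132-31019281, minus strand, for Gnl3; chr6:125131733-125131882, plus strand, for Nop2; chr11:106256085-106256234, minus strand, for Ftsj3. The other windows are chr19:8735689-8735838, plus strand, for Wdr74, chr3:69721905-69722054, plus strand, for Nmd3, and chr10:40246980-40247129, minus strand, for Rpf2.
Gnl3: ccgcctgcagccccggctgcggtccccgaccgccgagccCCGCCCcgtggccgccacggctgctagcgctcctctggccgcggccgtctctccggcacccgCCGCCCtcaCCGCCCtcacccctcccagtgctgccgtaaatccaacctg
Nop2: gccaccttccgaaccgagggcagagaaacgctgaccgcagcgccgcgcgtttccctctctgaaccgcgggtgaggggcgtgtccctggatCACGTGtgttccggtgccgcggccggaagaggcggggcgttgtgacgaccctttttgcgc
Ftsj3: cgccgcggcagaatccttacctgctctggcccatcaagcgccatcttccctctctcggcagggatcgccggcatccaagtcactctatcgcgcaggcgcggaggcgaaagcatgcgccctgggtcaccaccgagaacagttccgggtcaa
Wdr74: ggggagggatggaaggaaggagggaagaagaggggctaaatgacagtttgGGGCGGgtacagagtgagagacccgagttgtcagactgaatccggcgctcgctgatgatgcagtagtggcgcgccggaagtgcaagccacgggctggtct
Nmd3: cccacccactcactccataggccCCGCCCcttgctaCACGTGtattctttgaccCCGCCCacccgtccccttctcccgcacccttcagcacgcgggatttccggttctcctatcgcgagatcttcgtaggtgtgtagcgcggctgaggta
Rpf2: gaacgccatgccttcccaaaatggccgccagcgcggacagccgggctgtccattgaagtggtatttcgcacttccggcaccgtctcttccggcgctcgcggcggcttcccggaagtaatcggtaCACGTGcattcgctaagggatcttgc
The E-box begins 60 bases before the start in Nop2, 114 in Nmd3 and 26 in Rpf2. Gnl3 holds 3 GC boxes on its other strand in this window. Ftsj3 holds neither motif in it, but has TGTTCT 18 bases before the start, inside the window, and GC boxes 159 bases before and 2 bases after the start, just outside it. Genes of the list lay on 17 chromosomes, with 6 of the 38 on chromosome 1 (Ncl, Nifk, Nvl, Rrp15, Rrs1 and Wdr12), of which 4 rose and 2 did not pass.

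The earliest nucleolar proteins in the list are abundant chaperones, and neither of the 2 measured ones passed. Nucleolin, Ncl, which binds the nascent precursor RNA, was at 11.92, 12.09 and 11.90 on the progesterone arrays and at 11.65, 11.68 and 11.80 on the oil arrays. The groups did not overlap, but the log2 change was 0.26 ± 0.097 (SE) with a limma adjusted p of 0.141. Nucleophosmin, Npm1, a histone and ribosomal protein chaperone of the nucleolus, was at 12.68, 12.80 and 12.57 with progesterone and at 12.62, 12.64 and 12.83 with oil. Its groups overlapped, and the 95% interval of its log2 change, -0.26 to 0.24, leaves out a change as large as that of any member that rose. These intervals, like all those given here, are from limma and are not adjusted for the number of genes.

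Both genes listed here as methyltransferases of large subunit RNA rose. Nop2, a cytosine methyltransferase, was at 8.81, 8.88 and 8.97 on the progesterone arrays, against 8.15, 8.16 and 8.10 on the oil arrays, a log2 change of 0.75 ± 0.087 (SE, limma adjusted p = 0.00427). Ftsj3, the counterpart of yeast Spb1, was at 7.47, 7.80 and 7.63 with progesterone and at 6.77, 6.75 and 6.70 with oil, or 1.86-fold higher (adjusted p = 0.00474). In each, the oil arrays lay close together and every progesterone array lay above them. Each gene had 1 probe set.

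The early nucleolar scaffold was the largest step with 14 genes, of which 8 rose, 0 fell and 6 did not pass. Ppan, a Brix-domain protein and counterpart of yeast Ssf1, was at 9.31, 9.12 and 8.93 with progesterone and at 8.48, 8.38 and 8.24 with oil, a log2 change of 0.75 ± 0.12 (SE, limma adjusted p = 0.0125). Nip7, which is needed for precursor RNA processing, was at 9.41, 9.62 and 9.70 with progesterone and at 8.82, 8.84 and 8.85 with oil (1.67-fold, adjusted p = 0.00731). Rrp15, needed for large subunit RNA processing in yeast, was at 8.84, 9.02 and 8.98 with progesterone and at 8.27, 8.26 and 8.13 with oil (1.65-fold, adjusted p = 0.00624). The groups did not overlap in any of these 3 genes. Ebna1bp2, the counterpart of yeast Ebp2, was at 9.24, 9.53 and 9.53 with progesterone, against 8.72, 8.81 and 8.79 with oil (1.58-fold, adjusted p = 0.0122). Nifk, a nucleolar partner of the Ki-67 protein, was 1.53-fold higher (adjusted p = 0.00784).

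The remaining called scaffold genes stood closer to the threshold. Nop16, a Myc-responsive gene in human cells, had a log2 change of 0.61 and an adjusted p of 0.042, and leaving out any 1 array ended the call (adjusted p between 0.0527 and 0.134). Brix1, another Brix-domain protein, had a log2 change of 0.51 and an adjusted p of 0.0446, and its call held only without progesterone replicate 1 (adjusted p = 0.0389), with an adjusted p between 0.0869 and 0.142 when any other array was left out. Surf6, the counterpart of yeast Rrp14, had a log2 change of 0.43 and an adjusted p of 0.0374, and its call held only without progesterone replicate 3 (0.0481, and otherwise 0.0817 to 0.113). The call of Ppan ended without oil replicate 2 (0.0573), and that of Ebna1bp2 without oil replicate 1 (0.0521) or oil replicate 2 (0.0531). With the mean of probe sets Ebna1bp2 had a log2 change of 0.29 (adjusted p = 0.118) and Surf6 of 0.31 (adjusted p = 0.121), so both calls ended. The probe sets added in this mean were dim. Those of Ebna1bp2 lay between 4.17 and 5.02 (log2 changes 0.45 and -0.24), and that of Surf6 between 3.97 and 4.56 (0.18). Nop16 lost its call with an offset of 32 before log2 (0.0507), and Surf6 with trended and robust eBayes (0.0544).

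Among the 6 scaffold genes that did not pass, 2 had arrays that did not overlap between the groups: Noc2l, of the Noc complexes of early particles in yeast, with a log2 change of 0.45 and an adjusted p of 0.0589, and Rrp1b, with 0.36 and 0.0596. Rrp1b has a paralogue in the list, Rrp1, whose log2 change was 0.04 (95% interval -0.30 to 0.37). Noc3l, a partner of Noc2l in yeast, was at 7.54, 7.79 and 6.99 with progesterone and at 7.21, 7.30 and 6.85 with oil, so the groups overlapped (adjusted p = 0.433). Rpf1, also of the Brix-domain family, had a log2 change of 0.06 (adjusted p = 0.81). Tma16, with the highest adjusted p of the step (0.976), was at 7.24, 7.17 and 7.17 with progesterone and at 7.18, 7.16 and 7.26 with oil. Its 95% interval, -0.20 to 0.19, was the narrowest of the 36. Its other 2 probe sets gave log2 changes of 0.40 and 0.38 and did not pass (adjusted p = 0.222 and 0.141), and the groups did not overlap in the dimmer one.

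Both genes of the dock for the 5S ribonucleoprotein, a small RNA and protein module of the large subunit, rose. Rrs1, whose protein helps to recruit this module, showed the largest change of all 36 members. It was at 10.67, 10.87 and 10.48 on the progesterone arrays and at 9.44, 9.16 and 9.50 on the oil arrays, a log2 change of 1.31 ± 0.14 (SE), or 2.47-fold, with a limma adjusted p of 0.00348. A second probe set of Rrs1 was at 10.24, 10.29 and 10.15 with progesterone and at 8.85, 8.73 and 9.03 with oil, a log2 change of 1.36. Rpf2, the partner of Rrs1, was at 7.97, 7.98 and 8.12 with progesterone and at 7.10, 7.16 and 7.42 with oil (1.74-fold, adjusted p = 0.00775). Of its other 3 probe sets 1 passed, and the mean of all 4 gave a log2 change of 0.42 (adjusted p = 0.0177). Both calls held in all 6 fits without 1 array.

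The PeBoW complex, named after Pes1, Bop1 and Wdr12, is needed to process the large subunit RNA, and 2 of its 3 genes rose. Bop1 was at 8.18, 8.40 and 8.54 with progesterone and at 7.46, 7.47 and 7.69 with oil (1.78-fold, adjusted p = 0.00909). Wdr12 was at 8.14, 8.50 and 8.53 with progesterone and at 7.48, 7.69 and 7.69 with oil (1.71-fold, adjusted p = 0.0143). Pes1 was at 8.88, 8.93 and 9.09 with progesterone and at 8.60, 8.66 and 8.75 with oil, so its arrays also lay apart, but its log2 change was 0.30 (95% interval 0.07 to 0.53) and its adjusted p 0.101. Whether Pes1 differed from the other two in its change was not tested. The call of Wdr12 ended without oil replicate 1 (adjusted p = 0.056), oil replicate 2 (0.0555) or progesterone replicate 2 (0.0558). The mean of its 3 probe sets gave 0.48 against 0.77 on the log2 scale. Of the other 2, 1 lay between 2.76 and 3.01, under the highest TrpnX value of 3.34. The second had a log2 change of 0.72 and passed (limma adjusted p = 0.0369).

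Of the 4 nucleolar GTPases 2 rose. Gnl3, nucleostemin, which is known from stem and tumour cells, was at 10.46, 10.36 and 10.55 with progesterone and at 9.49, 9.36 and 9.40 with oil, or 2.06-fold higher. It had the smallest adjusted p of the list (log2 change 1.04 ± 0.093 SE, limma adjusted p = 0.00188). Gtpbp4, the counterpart of yeast Nog1, was at 9.38, 9.60 and 9.46 with progesterone and at 8.88, 8.83 and 8.89 with oil (1.53-fold, adjusted p = 0.00963). Leaving out oil replicate 2 ended its call (adjusted p = 0.0507), and 2 further probe sets of Gtpbp4 passed as higher. Gnl2, the counterpart of yeast Nog2, had a log2 change of 0.30 with non-overlapping arrays (adjusted p = 0.0965). Gnl3l, the paralogue of Gnl3, was at 7.90, 8.22 and 7.65 with progesterone and at 7.81, 7.69 and 7.67 with oil. Its groups overlapped, and its log2 change was 0.20 (95% interval -0.15 to 0.55, adjusted p = 0.477), beside an interval of 0.82 to 1.26 for Gnl3; the difference was not tested.

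Of the 7 factors of ATPase-driven release and nucleoplasmic maturation 4 rose, 0 fell and 3 did not pass. Mdn1, midasin, is the giant ATPase that strips factors from the particle, and Nle1, the counterpart of yeast Rsa4, is the factor that it pulls on. Mdn1 was at 9.03, 9.31 and 9.10 with progesterone and at 8.77, 8.42 and 8.43 with oil (1.52-fold, adjusted p = 0.0297). Nle1 was at 6.83, 7.00 and 7.09 with progesterone and at 6.20, 6.30 and 6.29 with oil (1.64-fold, adjusted p = 0.00757). Both rose, but the call of Mdn1 held only without progesterone replicate 1 (0.0439) or oil replicate 1 (0.0346) and ended without any of the other arrays (0.0654 to 0.112). With the mean of its 3 probe sets, of which the other 2 were below 4 on every array, the log2 change of Mdn1 was 0.22 (adjusted p = 0.107).

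In a second pair of this step, Wdr74 rose, and Nvl, the ATPase that acts on it, did not pass. Wdr74, the counterpart of yeast Nsa1, was at 9.11, 9.26 and 9.25 with progesterone and at 8.54, 8.50 and 8.43 with oil (1.64-fold, adjusted p = 0.00558). Nvl was at 6.25, 6.46 and 6.68 with progesterone and at 6.54, 6.39 and 6.44 with oil, with a 95% interval of -0.29 to 0.30 for its log2 change (adjusted p = 0.984), beside an interval of 0.51 to 0.93 for Wdr74. The difference between these changes was not tested. Sdad1, the counterpart of yeast Sda1, was at 8.84, 8.74 and 8.90 with progesterone and at 8.32, 8.20 and 8.05 with oil (1.55-fold, adjusted p = 0.0118), a call that was lost when oil replicate 2 was left out (0.0555).

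The other 2 genes of the step had negative log2 changes. Las1l, the nuclease that cuts the internal spacer of the precursor RNA, was at 8.90, 8.78 and 8.81 with progesterone and at 9.04, 9.17 and 8.89 with oil, an overlap of 1 array (log2 change -0.20, adjusted p = 0.275). Nsa2, a pre-ribosome protein needed for large subunit maturation in yeast, was at 10.88, 10.86 and 10.88 with progesterone and at 11.21, 11.42 and 11.05 with oil. It was the only member whose progesterone arrays all lay below the oil arrays, and its log2 change of -0.35 did not pass (adjusted p = 0.0923). Its second probe set gave -0.32.

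At the last step, Nmd3, the export adapter of the large subunit, rose and Lsg1, the cytoplasmic GTPase that releases Nmd3 in yeast, did not pass. Nmd3 was at 9.09, 9.25 and 9.04 with progesterone and at 8.27, 8.13 and 8.43 with oil (1.80-fold, log2 change 0.85 ± 0.11 SE, limma adjusted p = 0.00633). Of the other 3 probe sets of Nmd3, 1 passed with a log2 change of 0.78, and those at 0.49 and -0.04 did not; the mean of its probe sets gave 0.52. Lsg1 was at 6.67, 6.78 and 6.42 with progesterone and at 6.32, 6.53 and 6.43 with oil, so its groups overlapped (log2 change 0.20, 95% interval -0.09 to 0.48, adjusted p = 0.376). By step, members rose among methyltransferases (2 of 2), the 5S dock (2 of 2), PeBoW (2 of 3), scaffold (8 of 14), maturation ATPases and partners (4 of 7), GTPases (2 of 4) and export and release (1 of 2), and not among chaperones (0 of 2). These counts per step are small, and differences between steps were not tested.

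**Figure D2:**
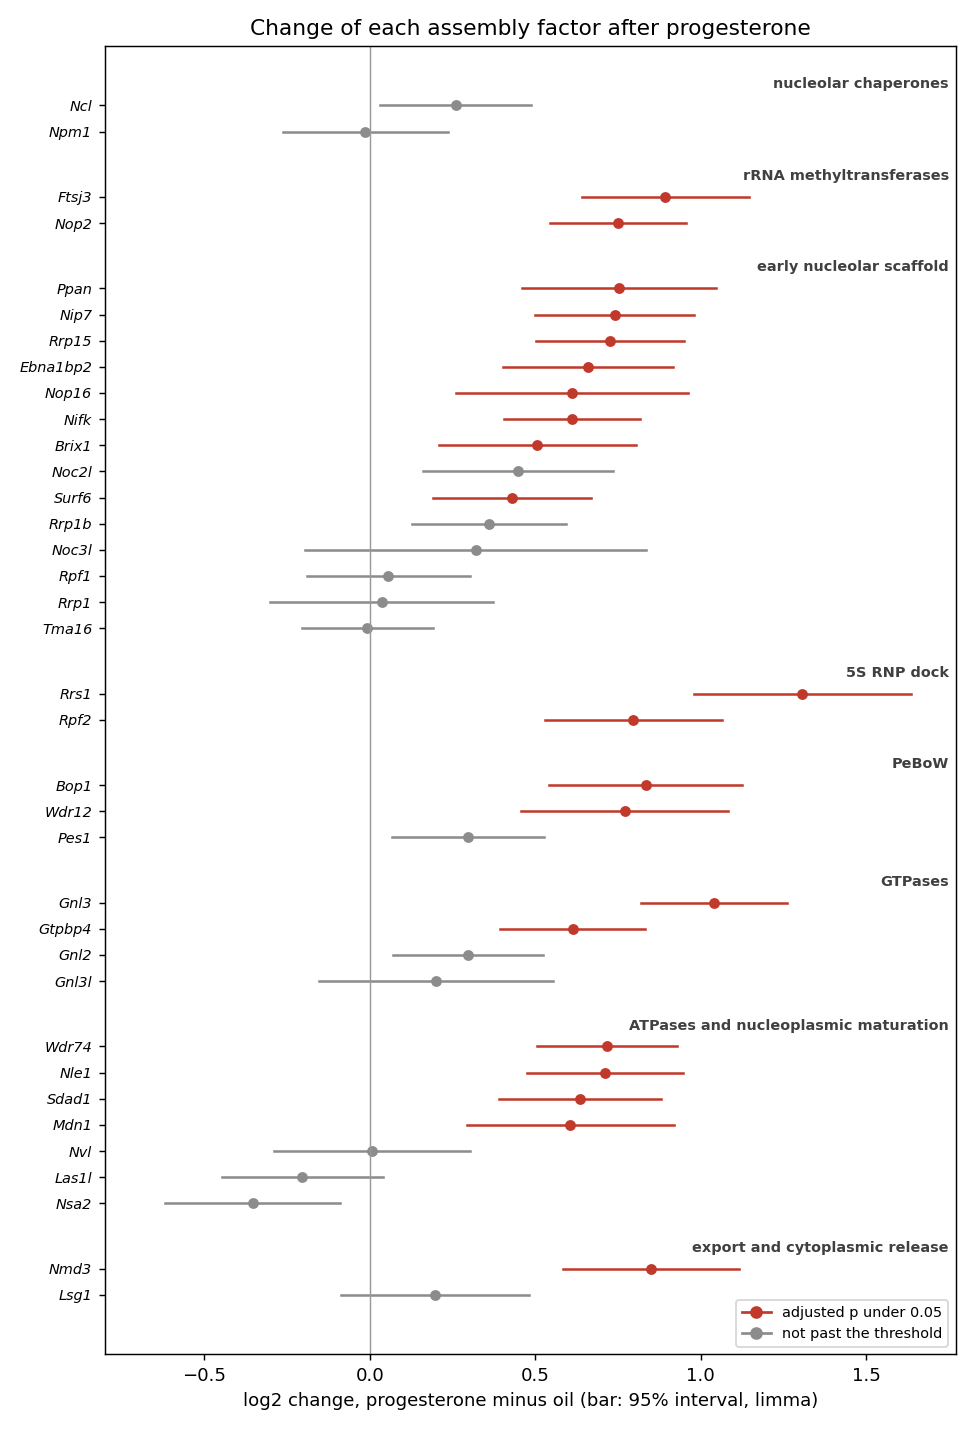
Log2 change (progesterone minus oil) of each measured assembly factor with its 95% interval from limma, grouped by step (red: adjusted p under 0.05 over all genes; grey: not past the threshold). The 21 red genes lie between 0.43 and 1.31, and Rrs1 and Gnl3 lie farthest to the right.

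Other probe sets of the same genes gave a second reading for 27 of the members. Of the 13 called members with several probe sets, 8 had another one that passed as higher and 0 had one that passed as lower, in a limma fit over all 34945 probe sets of 1 gene. For 2 members that did not pass, Noc2l and Noc3l, a dimmer probe set did: that of Noc2l had a log2 change of 0.56 (adjusted p = 0.0284) and that of Noc3l 0.62 (adjusted p = 0.0212). Over all 44 other probe sets of members, 31 had a log2 change above 0, 11 passed as higher and 0 as lower. The shares of all 34945 probe sets that passed or lay above 0 were not taken, so these counts stand without a background. In this fit the probe set used for Brix1 did not pass (limma adjusted p = 0.0505), whereas its dimmer one did (0.0311). Probe sets of 1 gene can lie in different exons or transcripts, and which of these applied here was not tested.

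The groups share replicate numbers, so differences within numbers were also taken. After subtracting group means, arrays of the same number correlated over all genes at 0.52 for number 1 and 0.64 for number 3, but only at 0.14 for number 2. In pair 1, 33 of 36 members were higher with progesterone and the median difference was 0.51; in pair 2 the values were 33 and 0.59, and in pair 3 they were 28 and 0.59. The share of all genes that was higher lay between 43.8% and 49.6% in these pairs. For the 26 members whose progesterone arrays all lay above the oil arrays, any pairing gives this direction. With the replicate number as a block, 21 members were higher and 0 lower, all 21 shared with the fit without the block, and with the block 7.60% of all genes were higher and 8.49% lower.

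The members varied little within groups. Their median SD within groups was 0.12, against 0.15 over all genes, with a range from 0.047 for Tma16 to 0.33 for Noc3l. The members were also brighter, with array medians from 8.35 to 8.975, against 6.84 to 6.93 over all genes. Genes of like level were not compared in their SD. The median member stood 0.21, 0.37 and 0.26 above its mean over all arrays on progesterone replicates 1 to 3, and -0.24, -0.25 and -0.30 relative to it on oil replicates 1 to 3. Thus the median of the members separated the groups on every array.

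Some arrays stood apart in other transcripts. The markers of the female tract (Pgr, Esr1, Hoxa10, Hoxa11 and Foxl2) lay between 9.49 and 13.32 on all arrays; with progesterone Hoxa10 and Hoxa11 rose and Pgr and Esr1 fell. The neutrophil transcript S100a8 was at 5.01, 12.02 and 12.48 on progesterone replicates 1 to 3 and at 4.92, 4.34 and 11.82 on oil replicates 1 to 3. S100a9 was above 11 on the same 3 arrays. Camp, also a neutrophil marker, did not follow them, at 4.27, 7.88 and 4.69 with progesterone and at 4.61, 4.12 and 5.20 with oil. Within the 3 arrays above 11 in S100a8 (2 progesterone, 1 oil), the median member difference between progesterone and oil was 0.65, and within the other 3 (1 progesterone, 2 oil) it was 0.47. Each of these comparisons has 1 array on one side and no test. None of 11 measured markers of proliferating cells passed in limma (0 also at an unadjusted p under 0.05), and their median level was 6.61, 7.56 and 8.28 with progesterone and 6.63, 6.18 and 8.36 with oil, highest on both replicates numbered 3. Without these 2 arrays 12 members were higher, all among the 21, and 3.22% of all genes were. The median level of 5 epithelial markers was 10.58, 10.10 and 10.66 with progesterone and 10.95, 10.89 and 11.22 with oil. All 5 had negative log2 changes, and 0 of them passed (1, Krt18, at an unadjusted p under 0.05 in limma, lower). The liver transcript Alb was at 8.71 on oil replicate 3 and between 3.96 and 4.29 on all other arrays. Without oil replicate 3, 17 members were higher, as were 3.95% of all genes, against 5.92% with all arrays. Of the other 3 measured liver markers, Apoa1 (log2 change -0.83) and Fgb (-0.41) were also highest on oil replicate 3, at 6.82 and 4.89, and did not pass, while Ttr passed as higher, at 8.63, 8.67 and 8.38 with progesterone and at 5.61, 4.81 and 7.44 with oil. Of the 5 skeletal muscle markers Acta1 passed as higher, at 10.27, 11.31 and 10.58 with progesterone and at 9.38, 8.80 and 9.25 with oil. All 3 measured adipocyte markers had negative log2 changes, and Adipoq was at 5.80, 7.21 and 4.39 with progesterone and at 8.02, 8.11 and 7.08 with oil. Neither Adipoq (log2 change -1.94, adjusted p = 0.113) nor Cidec (-0.58, adjusted p = 0.118) passed, but with the replicate block both did (adjusted p = 0.0135 and 0.0338, limma). All 5 endothelial markers had negative log2 changes and 0 passed, with 2 at an unadjusted p under 0.05 in limma, and Pecam1 (-0.46) passed with the block (adjusted p = 0.0293). Of 5 stromal markers 0 passed without the block. With it Vim (-0.53) passed as lower and Col1a1 (0.66) as higher (adjusted p = 0.0355 and 0.0338, limma). What part cell composition has in the rise of the members was not tested.

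**Figure D3:**
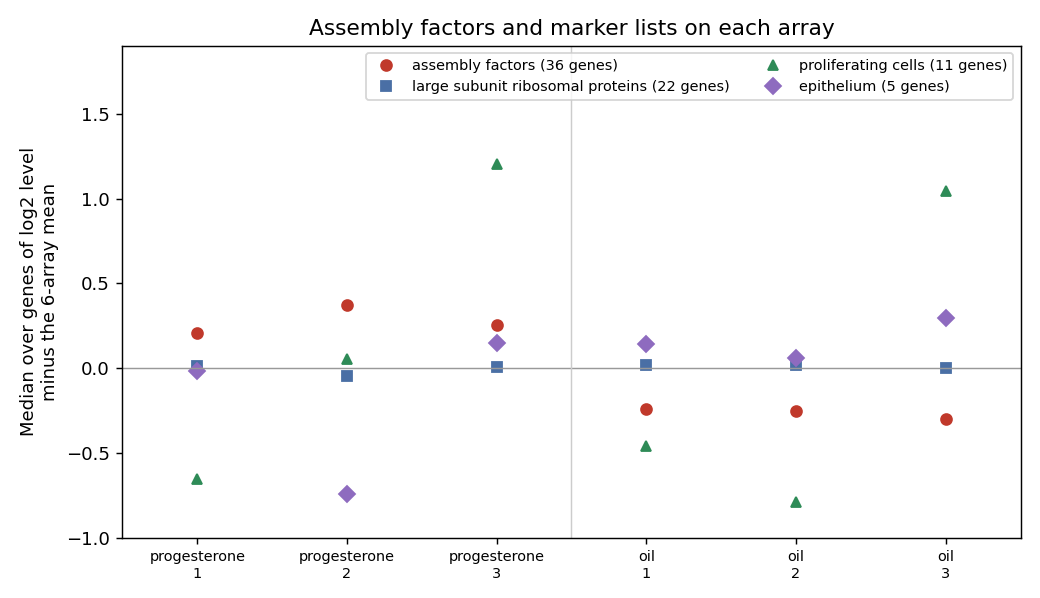
Median over genes of the log2 level minus the mean of all 6 arrays, on each array, for the 36 assembly factors (red circles), 22 large subunit ribosomal proteins (blue squares), 11 proliferation markers (green triangles) and 5 epithelial markers (violet diamonds). The assembly factors lie above 0 on all progesterone arrays and below 0 on all oil arrays, whereas the proliferation markers are highest on both arrays numbered 3.

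Other genes of the pathway were counted from lists of factors written for this comparison. Of 43 measured further assembly factors of the large subunit, 18 were higher and 0 lower, with a median log2 change of 0.38. The largest rises there were those of Urb1, a scaffold protein of early particles in yeast, at 2.26-fold (adjusted p = 0.00419), and of Ccdc86, the counterpart of yeast Cgr1, at 2.20-fold (adjusted p = 0.00228). Of 54 factors of the small subunit and of the nucleolar RNA-guided modification complexes, 32 were higher and 0 lower, with a median of 0.54, led by Rrp12 (log2 change 1.88) and Bysl (1.48). Of 15 genes of RNA polymerase I and its cofactors, 5 were higher and 0 lower, with a median of 0.27 (1, Taf1b, had a log2 change of -0.40 and an adjusted p of 0.179, and passed as lower with the replicate block, limma adjusted p = 0.0455), led by the subunits Polr1e (0.98) and Cd3eap (0.84). Of the 22 proteins of the large subunit that were measured out of 47, 1 was higher and 0 were lower, with a median of -0.01. That 1 was Rpl12, with a log2 change of 0.75 (adjusted p = 0.0233) and levels between 8.23 and 9.32. By the looser, unadjusted rule Taf1b was lower in the list of RNA polymerase I, and 0 genes were lower in the other 3 lists, those of the ribosomal proteins included. Of the 22, 16 had a mean level above 13, near the top of the range of these arrays, and how far a rise can register there was not tested. The other 25 were not analysed by name here, and the difference between the lists was not tested.

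**Figure D4:**
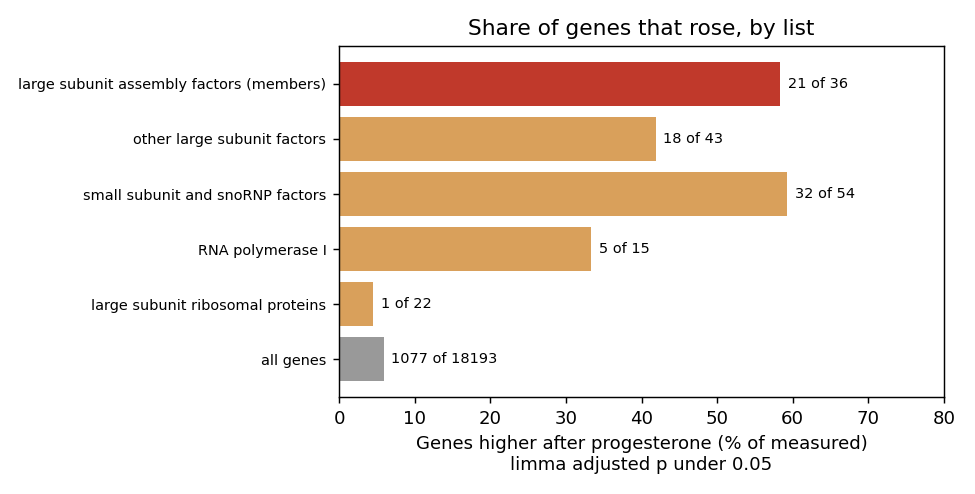
Share of measured genes that were higher after progesterone (limma adjusted p under 0.05) among the 36 large subunit assembly factors, 4 related lists and all 18193 genes, with counts beside the bars. The share is 58.3% for the assembly factors, 4.55% for the large subunit ribosomal proteins and 5.92% for all genes.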

How the data were processed

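One-colour Affymetrix arrays, 6 in all and 3 per group, measured uterine RNA of ovariectomized mice given progesterone or oil. The deposited values are log2 expression levels of 45101 probe sets with array medians between 5.51 and 5.53, and RMA and Partek 6.6 are named per the submitters' processing notes. Further settings of the authors' normalization are not given in the sources used here, and the number of arrays limits the precision.

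Gene names came from the platform annotation: 34945 probe sets had 1 gene symbol, and RefSeq names (GRCm38.p6) changed 0 of them. Where a gene had several such probe sets, the brightest by 6-array mean stood for it, which left 18193 genes. The groups, taken from the labels, entered a two-sided test in limma 3.58.1 (R 4.3.3) without filter or block. All genes were adjusted together by Benjamini-Hochberg, and a call needed an adjusted p under 0.05. The members, their steps and the other lists were chosen with earlier results of these data known, so they are no independent evidence of direction, and no set test was run. Values on every array were given for up to 4 called members per step by size of change and for the member with the largest adjusted p. Members of steps of up to 3 genes were all given, and further members were described after their values were seen.

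After subtracting group means, arrays of the same number correlated at 0.52, 0.14 and 0.64 over all genes, while progesterone 1 and oil 2, of different numbers, correlated at 0.32. All 3 same-number values exceed 0.1, which was the criterion for treating numbers as pairs; this is a hint from the data, since the labels do not say what a number shares. On simulated data with 18193 genes, 6 of 50 genes with a log2 change of 0.5 and 38 of 50 with a log2 change of 1 were recovered, and 7 of 148 calls were false. The simulation shuffled the spreads among genes and changed far fewer genes than the 2137 called in the data. The adjustment depends on that number, so these rates need not hold for the data. The alternatives covered normalization (quantile, or array medians centred), log offset (32), dim genes (lowest 25% or 50% dropped), probe sets averaged per gene, eBayes with trend and robust settings, the replicate block, single arrays omitted, and stricter calls (adjusted p of 0.01, or 1.5-fold and over). Leaving out both replicates numbered 3 and splitting the arrays by S100a8 were chosen after seeing the data.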

Additional observations from a re-analysis of the deposited data

How the results depend on the processing

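The count of members that rose was 21. It lay between 21 and 22 with quantile normalization, centred array medians, an offset of 32 or the lowest genes left out. The same range held with the mean of probe sets, trended and robust eBayes or the replicate block, and 0 members were lower under each alternative. The share of all genes that was higher lay between 5.93% and 8.56% in these fits, except without the lowest 50% of genes. There it was 13.2% of 9095 genes, and 65.6% of the members tested were higher. The member count was 13 at an adjusted p of 0.01, 19 with a minimum of 1.5-fold and 12 without both replicates numbered 3. With 1 array left out it was between 12 (without oil replicate 2) and 20, beside 2.08% to 4.66% of all genes. In the 6 fits without 1 array, 12 of the 21 calls held in all, 8 in some and 1, Nop16, in none; these fits have fewer arrays. The median member change of 0.61 was 0.53 with the offset, 0.47 with the mean of probe sets, 0.50 to 0.64 with 1 array left out, 0.55 without both replicates numbered 3, and 0.65 and 0.47 within the arrays above and not above 11 in S100a8. The near-constant member counts include exchanges: Nop16 was lost and Gnl2 and Rrp1b gained with the offset, Surf6 was lost and Noc2l and Rrp1b gained with trended and robust eBayes, and Nle1 and Surf6 were not tested and Noc2l and Rrp1b gained without the lowest 50% of genes. Rrp1b was also gained with centred medians and without the lowest 25%. With the mean of probe sets Ebna1bp2, Mdn1 and Surf6 lost their calls and Noc2l, Noc3l and Rrp1b gained them. Over all genes 1077 were higher and 1060 lower, and these counts were 328 and 243 at an adjusted p of 0.01, 674 and 642 with a minimum of 1.5-fold, 586 and 441 without both replicates numbered 3, and between 379 and 848 higher and between 278 and 907 lower with 1 array left out. The replicate block gave 1382 higher and 1545 lower genes and changed no member call.

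Signs turned only for 5 members near 0 that were not called. Npm1 was at 0.012 with quantile normalization, 0.00 with centred medians and 0.11 without both replicates numbered 3, and between -0.072 and 0.053 with 1 array left out. Tma16 was at 0.022 with quantile normalization, 0.0067 with centred medians, 0.26 with the mean of probe sets and 0.035 without both replicates numbered 3, and between -0.03 and 0.023 with 1 array left out. Rpf1 was at -0.13 with the mean of probe sets and between -0.017 and 0.10 with 1 array left out. Nvl was at -0.11 without both replicates numbered 3 and between -0.10 and 0.11 with 1 array left out, and Rrp1 lay between -0.04 and 0.16 with 1 array left out. The cause of these differences was not tested.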
